A study of Homo sapiens with 17 samples.

Results

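The sites bound by FOXA3dCTD and FOXA2dCTD, a pair of forkhead factors expressed without their C-terminal domain (CTD), were compared by asking which FOXA2dCTD peaks the much shorter FOXA3dCTD list holds. The members were all peaks on chromosomes 1-22 and X in the combined list of each factor, 6763 for FOXA3dCTD and 52866 for FOXA2dCTD. Together these were 59629 of the 208775 rows in the 8 combined lists of the study. Each factor was expressed with a Flag tag from a doxycycline-inducible (Tet-on) construct in stable lines of U2OS, a human osteosarcoma cell line, and chromatin was precipitated with a Flag antibody and sequenced. Cells of both groups received doxycycline for 4 days, at 500 ng per ml in the treatment labels, and each group had 2 biological replicates. The extraction protocol gives the same number per microlitre, and this conflict was not resolved. The study has 17 samples, namely 8 groups with a tagged factor and 1 input. All factor groups share the host line, the Tet-on system and the induction. The labels give neither the residues removed, nor whether a line is 1 clone, nor how much of each protein the cells made. A peak list cannot show whether the cells are U2OS, so the cell type was not checked against markers.

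FOXA1, FOXA2 and FOXA3 are pioneer transcription factors: their winged-helix forkhead domain can bind its DNA site on a nucleosome and help to open the chromatin there. FOXA2 is needed for definitive endoderm and its organs, and FOXA3 is abundant in liver and gut. The forkhead domains of the family are closely alike, whereas the regions outside it differ more, and the C-terminal region of FOXA proteins takes part in transcriptional activation and in contacts with histones.

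The sequences below show what the shared and unshared sites look like at gene starts. RefSeq promoter sequences (GRCh38.p14) were searched on both strands for the forkhead strings TGTTTAC and TATTTAC, whose reverse complements are GTAAACA and GTAAATA. Each line gives 100 bases that hold a peak summit and end before the gene's start, 5′ to 3′ on the strand of the gene, in lower case with forkhead strings in capitals. The first line lies at chr11:63289803-63289902 on the plus strand. By the lower -log10 p of both replicates it has the strongest FOXA3dCTD summit in any promoter searched, tied with SUPT4H1. The SLC22A10 promoter holds no such string, whereas that of SUPT4H1, not printed here, holds 1.
SLC22A10: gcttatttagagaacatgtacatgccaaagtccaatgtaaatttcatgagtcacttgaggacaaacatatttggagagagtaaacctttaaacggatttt
The next 4 promoters have a FOXA3dCTD summit inside a peak that also overlaps a FOXA2dCTD peak. They lie at chr20:57710578-57710677 (minus), chr1:109090599-109090698 (plus), chr2:27356809-27356908 (minus) and chr3:119677539-119677638 (minus).
PMEPA1: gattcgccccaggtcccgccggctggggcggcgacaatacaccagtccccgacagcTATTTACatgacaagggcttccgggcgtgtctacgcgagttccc
TMEM167B: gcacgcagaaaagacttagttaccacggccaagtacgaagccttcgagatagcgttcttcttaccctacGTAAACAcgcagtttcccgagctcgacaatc
GTF3C2: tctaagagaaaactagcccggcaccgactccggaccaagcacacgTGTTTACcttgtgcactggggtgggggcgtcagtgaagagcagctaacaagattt
COX17: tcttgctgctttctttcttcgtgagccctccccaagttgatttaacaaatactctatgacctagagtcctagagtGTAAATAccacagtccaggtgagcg
The last pair carries a FOXA2dCTD summit and no FOXA3dCTD peak, at chr14:74084713-74084812 (plus) and chr15:66505097-66505196 (plus).
LIN52: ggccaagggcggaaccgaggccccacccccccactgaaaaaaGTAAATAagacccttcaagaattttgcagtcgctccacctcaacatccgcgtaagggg
ZWILCH: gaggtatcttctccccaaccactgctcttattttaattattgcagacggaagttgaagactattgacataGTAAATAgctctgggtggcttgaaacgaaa
The 6 promoters from PMEPA1 to ZWILCH were chosen for display after their values and strings were seen, so the presence of a string in them is no result. A match to these letters is a description of the sequence and not a mapped binding site.

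These promoters had the following peak strengths, each given as the -log10 p of the peak in both replicates. At PMEPA1, whose product restrains TGF-beta signalling, the values were 12.9 and 18.8 for FOXA3dCTD and 9.32 and 10.3 for FOXA2dCTD. TMEM167B, a small transmembrane protein gene, had 12.7 and 21.5 for FOXA3dCTD and 9.32 and 15.9 for FOXA2dCTD. GTF3C2, a subunit of the RNA polymerase III factor TFIIIC, had 12.6 and 15.4 against 5.61 and 5.37. These 3 promoters were called well above the limit of either list. COX17, a copper chaperone of cytochrome oxidase, had 12.5 and 25.2 for FOXA3dCTD and 5.47 and 6.61 for FOXA2dCTD. LIN52, a subunit of the DREAM cell cycle complex, had 11.01 and 10.3 for FOXA2dCTD and no FOXA3dCTD peak. ZWILCH, a kinetochore protein gene, had 9.96 and 13.98 for FOXA2dCTD and likewise no FOXA3dCTD peak. The unshared pair was thus as strong for FOXA2dCTD as the promoters of PMEPA1 and TMEM167B.

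Strength below means the lower of the 2 -log10 p values of a peak, and rank 1 is the strongest peak of a list. Strength ran from 4.43 to 76.8 (median 7.75) in the FOXA3dCTD list and from 2.09 to 43.8 (median 2.96) in the FOXA2dCTD list. The FOXA3dCTD list ends at an irreproducible discovery rate (IDR, a measure of how well the rank of a peak repeats between replicates) of 0.01003, and the FOXA2dCTD list at 0.250. Depth is unknown, because reads were not analysed here. Each factor has 1 combined list, so no test over replicates was possible, and every 95% interval covers counting error over peaks only. Of all 6813 FOXA3dCTD rows, 5012 (73.6%) were identical, in position and values, to rows of the list deposited for full-length FOXA3, and from which experiment they stem cannot be told apart. The 4981 such rows on chromosomes 1-22 and X overlapped a FOXA2dCTD peak in 81.5% of cases (80.4 to 82.5), against 70.1% (67.9 to 72.2) of the other 1782. Peaks in the longest gene-free interval of every chromosome (164.4 Mb together, called gene-free stretches) also stood apart. These intervals contained 804 FOXA3dCTD peaks (11.9% of the list) and 1614 FOXA2dCTD peaks (3.05%), and 730 of the 804 also lay in the lists of SOX2 or of SOX2 joined to the FOXA2 CTD. They held 188 of the 4981 identical rows and 616 of the other 1782. Outside the stretches, identical rows made up 80.1% of FOXA3dCTD peaks with a FOXA2dCTD peak and 82.1% of those without. The gap of 81.5% against 70.1% was thus not seen there.

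The FOXA2dCTD list was 7.82 times as long as the FOXA3dCTD list (7.62 to 8.02). This ratio came with the IDR limits: with both lists limited to an IDR of 0.01, 6460 FOXA2dCTD and 6763 FOXA3dCTD peaks remained, a ratio of 0.955 (0.923 to 0.988). The median peak width was 619 bp for FOXA2dCTD and 649 bp for FOXA3dCTD over the full lists, and 779.5 bp against 649 bp at the shared limit. Without the rows identical to the full-length FOXA3 list the first ratio was 29.7. The shorter list as deposited therefore has no fewer peaks than the longer one where both are read to the same limit.

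A FOXA2dCTD peak is called held where a FOXA3dCTD peak overlaps it by at least 1 bp. FOXA3dCTD held 5321 of the 52866 FOXA2dCTD peaks, a background of 10.1% (9.81 to 10.3) against which each subset below is read. In the other direction 5307 of the 6763 FOXA3dCTD peaks, 78.5% (77.5 to 79.4), overlapped a FOXA2dCTD peak, and 84.3% (83.3 to 85.2) did outside the gene-free stretches. Most of the FOXA3dCTD list thus lay within the FOXA2dCTD list, while most of the FOXA2dCTD list lay outside it. With the IDR limit of 0.01 applied to both, 2561 FOXA2dCTD peaks were held, 39.6% of that shortened list, and 37.9% of FOXA3dCTD peaks overlapped one. Without the rows identical to the full-length list, 2.37% of FOXA2dCTD peaks were held by the 1782 rows left.

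Held sites were the stronger FOXA2dCTD sites. In 10 classes of FOXA2dCTD strength with equal numbers of peaks, class 1 the weakest, the held share was 2.497% in class 1, 1.55% in class 2, 4.52% in class 5, 11.8% in class 8 and 19.5% in class 9. In class 10, with strengths of 6.19 to 43.8, FOXA3dCTD held 2226 of 5286 peaks, 42.1% (40.8 to 43.4). The strongest 25% of FOXA2dCTD peaks exceeded the weakest 25% by 25.4 percentage points (24.6 to 26.2), with 27.4% against 2.00% held. Without the rows identical to the full-length FOXA3 list the difference was 5.84 points, where only 2.37% of all FOXA2dCTD peaks were held. The counts were then 834 of 13216 against 62 of 13217. Among the 1000 strongest FOXA2dCTD peaks 626 were held (62.6%), and among the 5000 strongest 42.9%. The median strength was 5.47 for held and 2.85 for unheld sites, and the median rank 7180 against 28464. Even near the top of the list, many strong FOXA2dCTD sites had no FOXA3dCTD peak.

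**Figure D1:**
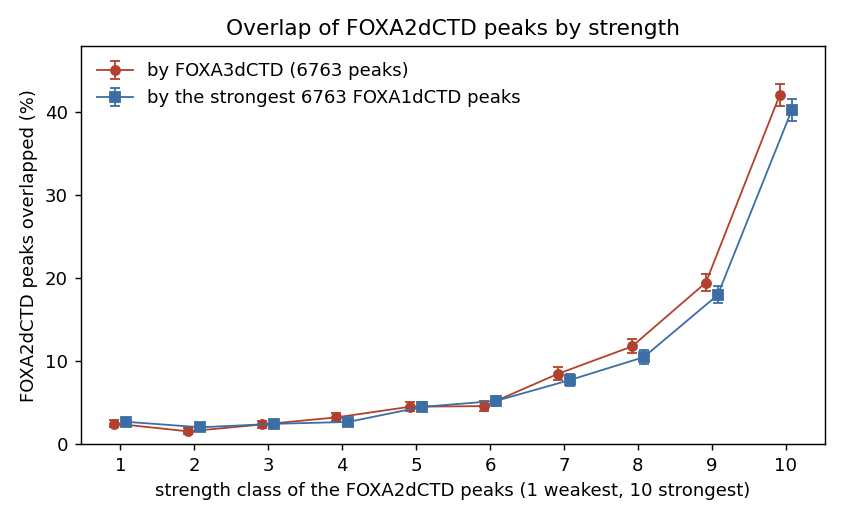
Share of FOXA2dCTD peaks overlapped (y axis, percent) in 10 classes of FOXA2dCTD strength (x axis, 1 the weakest), with 95% Wilson intervals, for FOXA3dCTD and for an equal number of the strongest FOXA1dCTD peaks. For FOXA3dCTD the share is 2.497% in the weakest class and 42.1% in the strongest, and for FOXA1dCTD it is 40.2% in the strongest.

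The strength of FOXA3dCTD at a site followed that of FOXA2dCTD only loosely. Over the 5331 overlapping pairs the Spearman correlation of the strengths was 0.269 and that of the widths 0.467. Between the 2 replicate p-value columns of a single list it was 0.156 for FOXA3dCTD and 0.350 for FOXA2dCTD, over all peaks of each list. The 2 FOXA3dCTD columns thus followed each other no more closely than the strengths of both factors did. These correlations are descriptions across sites, which share libraries and chromatin. Summits lay a median of 28 bp apart, and 4821 pairs (90.4%) had them within 100 bp. Of the 5307 FOXA3dCTD peaks with a FOXA2dCTD peak, 2561 (48.3%) met one of the 6763 strongest FOXA2dCTD peaks, and 737 (13.9%) met only peaks below the median rank of the whole FOXA2dCTD list. Among the 500 strongest FOXA3dCTD peaks, 407 overlapped FOXA2dCTD (81.4%), and 310 of these (76.2%) met one of the strongest 6763. Outside the gene-free stretches the overlap was 86.8% in the weakest of 10 classes of FOXA3dCTD strength, lowest in class 5 at 77.2%, and 90.2%, 91.8% and 94.2% in classes 8, 9 and 10.

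**Figure D2:**
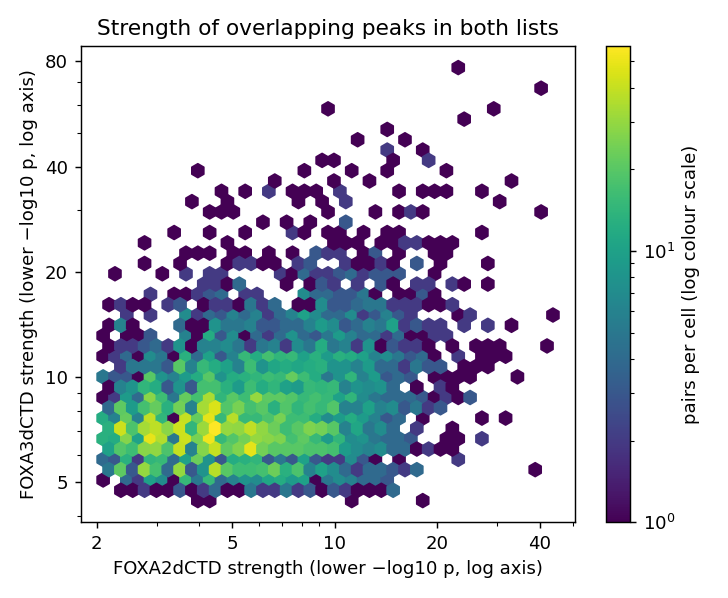
Strength of the FOXA3dCTD peak against strength of the FOXA2dCTD peak it overlaps, for the 5331 overlapping pairs, each as the lower -log10 p of both replicates. The points spread widely around the trend, with a Spearman correlation of 0.269.

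The 12 strongest shared sites outside the gene-free stretches all lay at least 6401 bp from the nearest end of a protein-coding gene. The top FOXA3dCTD peak overlapping FOXA2dCTD, at chr2:91602411-91603653, was 158939 bp from the nearest protein-coding gene in the table. It had -log10 p values of 38.9 and 61.8 for FOXA3dCTD and 26.5 and 13.9 for FOXA2dCTD. The next lay within PAX5, a B-lymphocyte transcription factor gene, at chr9:36923587-36924692. There the values were 36.4 and 63.6 for FOXA3dCTD and 33.8 and 54.2 for FOXA2dCTD, which put the site at rank 25 and rank 7 of the lists. Both factors thus placed the PAX5 site among their very strongest. Within ADARB2, a member of the RNA-editing adenosine deaminase family, FOXA3dCTD had 35.4 and 46.7 and FOXA2dCTD 57.5 and 8.87. The ADARB2 site shows how far the FOXA2dCTD replicates could part at a strong site, and its FOXA2dCTD rank was 2118. Within ACER3, an alkaline ceramidase gene, the values were 30.2 and 29.5 for FOXA3dCTD and 18.2 and 34.02 for FOXA2dCTD. The remaining 8 of the 12 strongest shared sites lay in or nearest to EXD3, NEURL1, C7orf25, NACA2, FAM86B2, TOM1, LRRC37A3 and LOC102723475. At LOC102723475 the FOXA3dCTD peak was 3941 bp wide, and its summit lay outside the 431 bp FOXA2dCTD peak. The FOXA3dCTD rows at EXD3, C7orf25, NACA2, FAM86B2 and ACER3 were identical to rows of the full-length FOXA3 list. Over all shared FOXA3dCTD peaks outside the gene-free stretches, 80.1% were such rows. Of all 12, 11 also overlapped a FOXA1dCTD peak and 12 a peak of full-length FOXA2. Beside this, 1705 of the 2226 held peaks in the strongest class of FOXA2dCTD strength lay in both those lists.

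Ranked by FOXA2dCTD instead, the 4 strongest held sites lay in or nearest to POTEG, PLEKHH2, FAM86B2 and TTC28. The top site, nearest to POTEG at chr14:19297573-19298722, had 43.8 and 69.5 for FOXA2dCTD and 12.01 and 51.6 for FOXA3dCTD. Next came a site within PLEKHH2, with 43.5 and 48.2 for FOXA2dCTD and 15.3 and 43.6 for FOXA3dCTD. A site near FAM86B2 had 39.5 and 55.8 for FOXA2dCTD and 41.0 and 30.6 for FOXA3dCTD. All 4 values were high there. The FOXA3dCTD rows at PLEKHH2 and FAM86B2 were identical to rows of the full-length FOXA3 list. Within TTC28 at chr22:28046185-28048086, FOXA2dCTD had 38.3 and 71.2, while FOXA3dCTD had 5.28 in 1 replicate and 39.3 in the other. The TTC28 peak therefore ranked 5 for FOXA2dCTD and 6501 for FOXA3dCTD.

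Many strong FOXA2dCTD sites were not in the FOXA3dCTD list. The strongest, within SLC35F1 at chr6:117923724-117924563, had 28.6 and 33.3 for FOXA2dCTD. A site nearest to NFATC1, a calcium-responsive transcription factor gene of lymphocytes, had 27.9 and 30.1 at chr18:79563514-79565238. A site within SLC25A20, the mitochondrial carnitine-acylcarnitine carrier gene, had 30.4 and 26.7 at chr3:48885234-48886655. These values stood far above the lowest strength of the FOXA3dCTD list, 4.43, although strengths are not on 1 scale across libraries of unknown depth. Further sites among the 8 strongest unheld ones lay in or nearest to ZWINT, TSHZ2, OR11H1 and PRKG1. All 8 overlapped a peak of full-length FOXA2, and 6 of 8 one of FOXA1dCTD. Most strong FOXA2dCTD peaks did so. Of the 5286 in the strongest of 10 classes, 3847 lay in both these lists, 729 in that of full-length FOXA2 only and 471 in that of FOXA1dCTD only.

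For width, neighbours and gene bodies, held and unheld sites of like strength differed by less than the counting error over the full lists, with overlap of at least 1 bp. For width this depended on the overlap rule. Held peaks were wider (median 697 against 610 bp), and the wider part of the list, above its median width, was held in 12.5% of cases against 7.63%. That difference of 4.87 percentage points (4.36 to 5.39) was 0.107 (-0.366 to 0.580) within strength classes. Under 50% reciprocal overlap the value within classes was -0.466 (-0.916 to -0.0147), and with summits within 100 bp -0.850 (-1.30 to -0.397). With both lists limited to an IDR of 0.01 the width difference was -1.89 points (-4.27 to 0.497), and -4.68 (-6.99 to -2.37) within classes, so that there the narrower sites of like strength were held more often. In the strongest class, held peaks had a median of 773 bp and unheld peaks 792 bp. Sites with another FOXA2dCTD peak within 10 kb were held 1.18 points more often (0.663 to 1.71), and 0.369 (-0.112 to 0.850) within classes. The difference between sites inside and outside protein-coding genes was -0.0480 points (-0.562 to 0.469), and 0.0232 (-0.450 to 0.497) within classes.

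Sites that FOXA1dCTD also bound were held more often, and overlap with full-length FOXA2 gave no such single direction. FOXA2dCTD peaks overlapping a FOXA1dCTD peak were held in 16.99% of cases against 4.77%, a difference of 12.2 points (11.7 to 12.8) and of 4.43 (3.90 to 4.95) within strength classes. Of the held sites 73.2% lay in the FOXA1dCTD list, and of the unheld sites 40.0%. Overlap with full-length FOXA2 gave 16.1% against 5.44%, a difference of 10.7 points (10.2 to 11.3) and of 1.68 (1.16 to 2.20) within classes. In the strongest class, sites with FOXA1dCTD and without full-length FOXA2 were held in 49.5% of cases, and sites with full-length FOXA2 and without FOXA1dCTD in 27.2% (24.1 to 30.5). Sites of that class with both lists were held in 44.3% of cases and those with neither in 37.7% (31.8 to 43.9). In that class full-length FOXA2 alone thus went with a lower share than neither. Over all FOXA2dCTD peaks the order was the other way, with 9.08% held for full-length FOXA2 alone and 3.32% for neither. With both lists limited to an IDR of 0.01 the FOXA1dCTD difference was 13.4 points, and that of full-length FOXA2 turned to -2.82 (-6.25 to 0.546), and to -6.66 (-9.98 to -3.34) within classes. Without the rows identical to the full-length FOXA3 list, the FOXA1dCTD difference was 2.89 points, where only 2.37% of all FOXA2dCTD peaks were held. The counts were then 919 of 22919 with FOXA1dCTD against 335 of 29947 without. Sites inside a gene-free stretch were held 7.96 points more often (6.15 to 9.92), and 2.88 (1.12 to 4.65) within classes. Under 50% reciprocal overlap the value within classes was 0.0476 (-1.53 to 1.63). With both lists limited to that IDR the stretch difference turned to -3.86 (-8.53 to 1.07), and to -7.95 (-12.6 to -3.26) within classes.

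**Figure D3:**
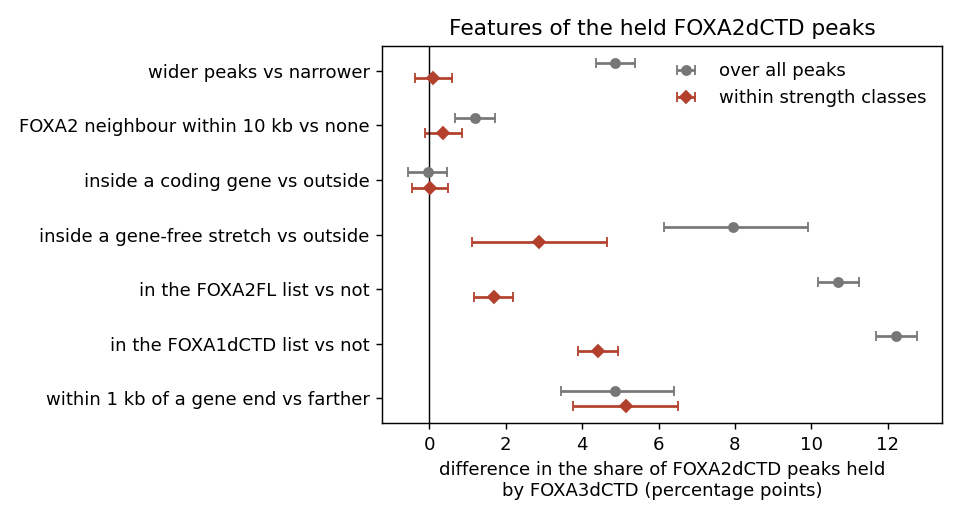
Difference in the held share (x axis, percentage points) between FOXA2dCTD peaks with and without each feature (y axis), over all peaks (circles) and within classes of FOXA2dCTD strength (diamonds), with 95% intervals. The width difference falls from 4.87 to 0.107 within classes, and the gene-end difference is 4.87 and 5.14.

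The FOXA3dCTD list as deposited held more of the FOXA2dCTD sites at gene ends. Without its rows identical to the full-length FOXA3 list, no such difference was detectable over all peaks, gene-free stretches included. Of the 2282 FOXA2dCTD summits less than 1 kb from either end of a protein-coding gene, 336 were held, 14.7% (13.3 to 16.2), against 9.85% of those farther away. The difference was 4.87 points (3.45 to 6.40), and 5.14 (3.77 to 6.504) within strength classes. It was larger at starts: of 1604 sites within 1 kb of a start in the RefSeq promoter table, 265 were held (16.5%), a difference of 6.66 points (4.90 to 8.57). Near only the other end of those genes 59 of 544 were held (10.8%), a difference of 0.789 points (-1.57 to 3.69). In the strongest class, 116 of 208 sites near a gene end were held (55.8%). With both lists limited to an IDR of 0.01 the difference was 17.6 points (11.4 to 23.5). Without the rows identical to the full-length FOXA3 list it was 0.269 points (-0.328 to 1.02), an interval that includes 0. The held sites were then 60 of 2282 near a gene end and 1194 of 50584 farther away. Of the 1782 rows left, 616 lay in gene-free stretches, against 188 of the 4981 identical rows. This difference was not computed outside the stretches. Read by list instead, and outside the gene-free stretches, 6.91% (6.22 to 7.66) of the identical FOXA3dCTD rows and 6.003% (4.78 to 7.52) of the others were near a gene end, against 4.45% (4.28 to 4.63) of FOXA2dCTD peaks. There the other rows too were near a gene end more often than FOXA2dCTD peaks, with intervals that do not meet.

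The strongest FOXA1dCTD peaks, taken in the same number of 6763, held fewer of the sites at gene ends. The FOXA3dCTD values set beside them include the rows identical to the full-length list. They held a similar share of the whole FOXA2dCTD list, 5078 peaks or 9.61%, and 40.2% of its strongest class. Within 1 kb of a gene end they held 99 of 2282 peaks (4.34%), a difference of -5.50 points (-6.31 to -4.55) from sites farther away. From near to far, in classes of within 1 kb, 1 to 10 kb, 10 to 100 kb and beyond 100 kb, FOXA3dCTD held 14.7, 10.6, 10.3 and 8.97%, and FOXA1dCTD 4.34, 8.42, 9.30 and 11.1%. The intervals of both lists do not meet in any of these 4 classes, and FOXA3dCTD was higher in the nearest 3 and lower in the farthest. The FOXA2dCTD peaks held by both numbered 1451, which is 27.3% of those FOXA3dCTD held and 28.6% of those FOXA1dCTD held.

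**Figure D4:**
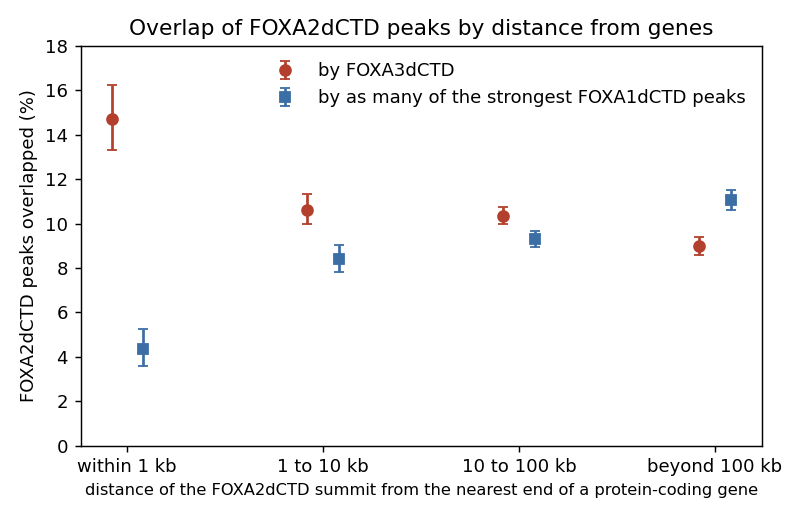
Share of FOXA2dCTD peaks overlapped (y axis, percent) by distance of the summit from the nearest protein-coding gene end (x axis), for FOXA3dCTD and for an equal number of the strongest FOXA1dCTD peaks, with 95% Wilson intervals. FOXA3dCTD falls from 14.7% within 1 kb to 8.97% beyond 100 kb, and FOXA1dCTD rises from 4.34% to 11.1%. The FOXA3dCTD values include the rows identical to the full-length list, without which the gene-end difference was 0.269 points over all peaks, gene-free stretches included.

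Promoters with a FOXA3dCTD summit often held a forkhead string. Over all 22012 promoters of protein-coding genes, each of 300 bases, 4.82% held at least 1 of the forkhead strings. Of the 170 with a FOXA3dCTD summit, 69 did, 40.6% (33.5 to 48.1), and of the 377 with a FOXA2dCTD summit and no FOXA3dCTD peak, 79 did, 21.0% (17.1 to 25.3). Restricted to the strongest 25% of FOXA2dCTD peaks, the shares were 41.7% (31.7 to 52.3, n = 84) for held and 30.6% (20.6 to 43.0, n = 62) for unheld peaks, and these intervals overlap. The nearest string lay a median of 15 bp from a FOXA3dCTD summit and 29 bp from an unheld FOXA2dCTD summit. The AP-1 string TGANTCA, searched on both strands and counted apart from the forkhead strings, which its matches may overlap, was in 8.82% of the FOXA3dCTD set, 11.1% of the unheld FOXA2dCTD set and 6.16% of all. Of the FOXA3dCTD summits in promoters, 134 promoters had one from a row identical to the full-length list and 36 from another row.

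**Figure D5:**
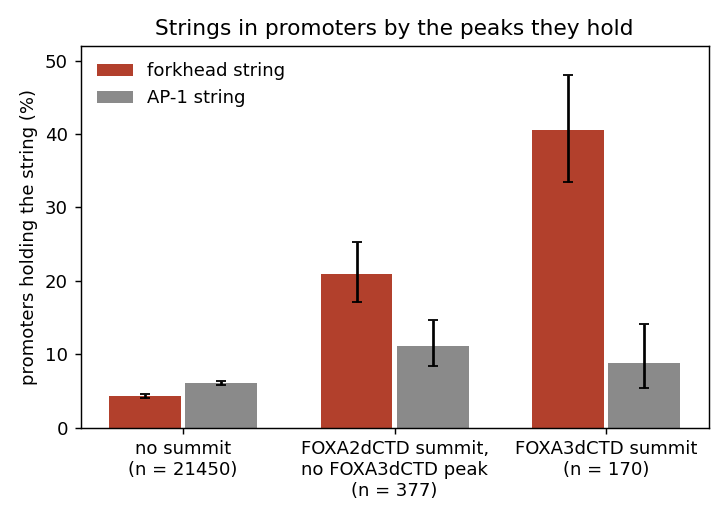
Share of promoters (y axis, percent) that hold a forkhead string or an AP-1 string, for promoters with no summit, with a FOXA2dCTD summit and no FOXA3dCTD peak, and with a FOXA3dCTD summit (x axis), with 95% Wilson intervals. The forkhead share is 4.24, 21.0 and 40.6% in this order.

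The 6 strongest promoter summits of FOXA3dCTD were mostly without an exact string. SLC22A10, an organic anion transporter family gene whose sequence is shown above, had 20.7 and 27.0 for FOXA3dCTD and 5.86 and 15.9 for FOXA2dCTD. SUPT4H1, a subunit of a transcription elongation factor, had 20.7 and 31.4 for FOXA3dCTD and 13.9 and 14.8 for FOXA2dCTD, with 1 string 12 bp from the summit that runs across the gene's start. SPAST, which encodes the microtubule-severing protein spastin, had 15.1 and 20.1 for FOXA3dCTD and 11.4 and 8.03 for FOXA2dCTD. These 3 were bound by both factors. GPR146, a G-protein-coupled receptor gene, had 18.04 and 18.4 for FOXA3dCTD. IFT74, an intraflagellar transport gene, had 20.7 and 17.3. KIAA1671 had 16.96 and 15.3. The last 3 promoters had no overlapping FOXA2dCTD peak.

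Of 19974 protein-coding genes, 10447 (52.3%) had a FOXA2dCTD summit in the gene or within 10 kb of it, and 2594 (12.99%) had a held one. Genes with most held sites were long. RORA, a nuclear receptor gene, had 8 held of 38 FOXA2dCTD sites (21.1%), and PARD3, a cell polarity gene, 8 of 49. CTNNA3, which encodes an alpha-catenin of cell junctions, had 9 of 67. SDK1, a cell adhesion gene, had 9 of 69, TTC28 had 9 of 71 and EYS, a photoreceptor gene, 8 of 80. RORA and PARD3 had the higher shares among these 6 genes, beside 10.1% over all FOXA2dCTD peaks. All 6 were chosen for their held sites, which numbered 8 or 9. Their order by share thus follows the number of FOXA2dCTD sites and is no result.

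Genes that FOXA factors are known to regulate had held shares near the background. In or within 10 kb of 25 hepatocyte genes, 3 of 29 FOXA2dCTD sites were held (10.3%, 3.58 to 26.4), beside 10.1% over all FOXA2dCTD peaks. The 3 were at G6PC1, the glucose-6-phosphatase gene, APOB, the main apolipoprotein of low-density lipoprotein, and TF, the transferrin gene. The G6PC1 site had 7.99 and 31.6 for FOXA2dCTD and 10.7 and 29.1 for FOXA3dCTD, so for both factors 1 replicate was much the stronger there. In 20 endoderm and gut regulators 1 of 15 sites was held (6.67%), at TBX3, a T-box transcription factor, with 6.19 and 7.81 for FOXA2dCTD and 15.0 and 16.8 for FOXA3dCTD. In 20 steroid hormone target genes 4 of 41 were held (9.76%). Of these, the site in ESR1, the oestrogen receptor gene, had 8.41 and 18.5 for FOXA2dCTD and 20.5 and 26.8 for FOXA3dCTD. KRT18, a keratin of simple epithelia, and PGR, the progesterone receptor gene, had 1 held site each.

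Among genes active in mesenchymal cells, the AP-1 and YAP-TEAD list had the highest held share, with a wide interval. In its 23 genes 9 of 43 sites were held, 20.9% (11.4 to 35.2), and 7.53 points (-4.23 to 19.3) above the rest within strength classes. MAFK, a small MAF bZIP factor, had 13.6 and 21.4 for FOXA2dCTD and 20.2 and 40.7 for FOXA3dCTD. CCN1, a matricellular target of YAP, had 11.3 and 11.1 for FOXA2dCTD and 7.75 and 25.4 for FOXA3dCTD. TEAD4, the DNA-binding partner of YAP, had 7.47 and 2.36 for FOXA2dCTD and 8.88 and 9.16 for FOXA3dCTD. TEAD4 shows a held site that was called weakly for FOXA2dCTD in 1 replicate only. Its 2 held sites, both counted in the 9, had 1 FOXA3dCTD summit in the gene or within 10 kb. In 26 TGF-beta and SMAD pathway genes 10 of 98 sites were held (10.2%), including 1 at SMAD7, an inhibitory SMAD, 1 at ACVR1, a BMP type I receptor, and 2 of 18 at LTBP1, which holds latent TGF-beta in the matrix. In 20 osteoblast and mesenchymal genes 3 of 28 were held (10.7%), 2 of them at PTH1R, the parathyroid hormone receptor. The stronger PTH1R site had 20.4 and 57.4 for FOXA2dCTD and 11.7 and 20.1 for FOXA3dCTD, and all 4 values were high. In 22 cytosolic ribosomal protein genes 1 of 10 was held, at RPS24.

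FOXA3dCTD peaks without a FOXA2dCTD peak numbered 1456, of which 519 lay in the gene-free stretches and 937 outside. Of the 937, 598 (63.8%) overlapped a peak in another FOXA1 or FOXA2 list and 339 (36.2%, 33.2 to 39.3) overlapped none. Within 10 kb of a FOXA2dCTD summit lay 401 of them (42.8%), and the median distance was 12.99 kb. Near a gene end lay 7.47% (5.96 to 9.33), against 6.59% (5.94 to 7.31) of the FOXA3dCTD peaks outside the stretches that overlapped FOXA2dCTD, and these intervals overlap. Median strength was 7.23 and 7.75 in the same order. Rows identical to the full-length list made up 82.1% and 80.1%.

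The strongest FOXA3dCTD peaks without FOXA2dCTD were bound in other FOXA lists. The top site, 453973 bp from CENPC, a centromere protein gene, at chr4:67014036-67015109, had 33.5 and 37.4 for FOXA3dCTD. A site near TNK2, a non-receptor tyrosine kinase gene, had 30.7 and 35.8 at chr3:195860334-195861565. A site within DGKB, a diacylglycerol kinase gene, had 26.3 and 21.5. In both replicates these 3 sites stood far above the list's median. HIVEP3, a zinc-finger transcription factor gene, had 20.7 and 24.2, and CDK6, a cell cycle kinase gene, 20.5 and 46.0. The sixth site, within CHLSN, is the peak at the GPR146 promoter given above. The rows at HIVEP3, CDK6 and CHLSN were identical to rows of the full-length FOXA3 list, beside 82.1% of all 937. Of the 6, 5 overlapped a peak of full-length FOXA2 and 4 one of FOXA1dCTD. Over all 937 such peaks outside the stretches, 37.0% overlapped full-length FOXA2 and 42.5% FOXA1dCTD.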

How the data were processed

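Groups were taken from the sample titles. Per the submitters' processing notes, FastQC 0.10.1, Trim Galore, Bowtie2 2.4.4, SAMtools 0.1.18, MACS2 and deepTools 2.4.1 were used with build hg38, and the IDR limits of the lists are not given in the sources used here. The authors deposited 1 combined list per factor in the layout of the IDR program, with a score column and a -log10 p-value for each replicate, which carry no replicate number. The deposited fold enrichment is a placeholder and was not used. From these lists, overlaps (at least 1 bp), Wilson intervals for shares, Newcombe intervals for differences and Mantel-Haenszel differences within 10 strength classes were computed with Python 3.11.15, numpy 2.4.6, pandas 2.3.3 and scipy 1.17.1, and tested on simulated data. Tied strengths were ordered by position. Libraries have no read depth here, so precision rests on peak numbers. Gene positions came from RefSeq (GRCh38.p14). Gene ends were the main measure, as the promoter table covers 78.7% of protein-coding genes and none on chromosome 8. Named sites were the 12 strongest shared FOXA3dCTD peaks, 8 strongest unheld FOXA2dCTD, 6 strongest unshared FOXA3dCTD and 4 strongest held FOXA2dCTD peaks outside gene-free stretches and the FOXA1, FOXA2, FOXA3 and SOX2 genes, 1 per gene, the 6 genes with most held sites, up to 3 members per gene list by FOXA3dCTD strength, and the 6 strongest promoter summits. Some sites that this rule names are not reported here. Members and lists were chosen with earlier results of these data known. The FOXA3FL list was used only to mark identical rows. Alternatives covered the overlap rule, IDR limit, ranking, distances, gene-free stretches and identical rows.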

Additional observations from a re-analysis of the deposited data

Results flagged for a closer look

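Peaks lay off chromosomes 1-22 and X, in sequences that no comparison above uses, and exceeded the 3 that a count of 0 allows. The FOXA3dCTD list had 50 such peaks, 0.734% of its 6813 rows. The FOXA2dCTD list had 549, which is 1.03% of its 53415 rows, 5 of them on chromosome Y.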

How the results depend on the processing

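Over 91 alternatives of 18 results, 34 differed by less than the intervals, 51 moved and 6 reversed, and 12 of the alternatives were added after seeing the data (identical rows, starts of the promoter table, and the joint IDR and stretch limits). The IDR limit reversed most. With both lists limited to an IDR of 0.01 the peak ratio was 0.955, the width difference -1.89 points, the full-length FOXA2 difference -2.82 (-6.66 within strength classes) and the gene-free stretch difference -3.86 (-7.95 within strength classes), while the strength difference was 30.2, the FOXA1dCTD difference 13.4, the gene-end difference 17.6, and the overlap 39.6% of FOXA2dCTD and 37.9% of FOXA3dCTD peaks. Outside the stretches too, the shares were 39.9% and 40.5%. Against as many of the strongest FOXA2dCTD peaks, both were 37.9%. Under 50% reciprocal overlap the shares were 8.92% and 69.7%, and the differences 22.9 (strength), 3.87 (width), 4.67 (stretch), 10.96 (FOXA1dCTD) and 9.61 (full-length FOXA2). Within strength classes the width difference was then -0.466 and the stretch difference 0.0476. With summits within 100 bp the shares were 9.12% and 71.3%, and the differences 23.7 (strength), 3.66 (width), 11.1 (FOXA1dCTD) and 9.72 (full-length FOXA2). The width difference within strength classes was then -0.850. Outside the gene-free stretches the ratio was 8.60, the FOXA3dCTD overlap 84.3%, the FOXA1dCTD difference 11.2 and the width difference 5.49. Ranked by global IDR the strength difference was 26.2, and by 1 p column 22.5. With gene ends within 2.5 kb that difference was 2.61, and with starts 6.66. Without identical rows the ratio was 29.7, the shares 2.37% and 70.1%, and the differences 5.84 (strength), 0.269 (gene end) and 2.89 (FOXA1dCTD). Those differences are over all peaks, gene-free stretches included, and are read beside the lower held share of 2.37%. The cause of these moves was not tested, except that the IDR limit and the identical rows leave fewer peaks by construction. No paired analysis was possible because each group is 1 combined list whose p-value columns carry no replicate number. Without read depth, an absent peak does not show that a factor is absent from a site.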
